A study of Mus musculus with 3 samples.

Results

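The respiratory chain assembly factors are nuclear-encoded proteins that help to build the complexes of oxidative phosphorylation without being part of the finished enzymes. A list of 32 of their genes was examined for binding by ESRRA, the estrogen-related receptor alpha, and 31 of the 32 were found in the GENCODE M1 annotation of the mm9 genome under the listed symbol. A gene was counted as bound when the midpoint of an ESRRA peak lay within 30 kb of any of its annotated transcript start sites, and genes without such a peak were kept as negatives. By this rule 6 of the 31 genes were bound, each by a single peak, which makes 6 of the 1639 peaks of the series.

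The peaks came from ChIP-seq on villus cells of the duodenal epithelium of adult wild-type mice, which were C57BL/6 animals on regular chow by the study's methods. ESRRA was precipitated in 2 libraries and 1 library held input chromatin, and a single peak list was deposited for the merged ChIP libraries. The list gives a chromosome, a start and an end for each peak and no height or score, so no value below has a replicate error, the reads behind a peak are not given and every peak weighs the same. The study's methods state a range of sequencing depth for its ChIP-seq libraries, and the depth of each library cannot be read from the list. With no expression values in the list, the labelled cell type could not be checked against its markers, and no comparison between genotypes or conditions was made.

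ESRRA is an orphan nuclear receptor that is known as a regulator of genes of mitochondrial energy metabolism, and the absorptive cells of the villus rely on mitochondria to process and export dietary nutrients. It binds an extended form of the nuclear receptor core sequence AGGTCA, preceded by additional bases in the order TCAAGGTCA. Assembly factors insert prosthetic groups such as heme, copper, flavin and iron-sulfur clusters, hold subunits in place until they are joined, and help mitochondrially encoded proteins into the inner membrane.

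Peaks had their midpoint within 1 kb of the start site in 3 assembly factor genes, Cox10, Cox11 and Oxa1l. Those of Cox10 and Oxa1l covered the start site, and that of Cox11 began 67 bp downstream of it. Cox10 encodes the farnesyltransferase that makes heme O, the precursor of heme A. Cox11 encodes a membrane-bound copper chaperone that serves the copper B site of cytochrome c oxidase. Oxa1l encodes the insertase that places mitochondrially made and imported proteins in the inner membrane. In all 3 genes the AGGTCA sequences within the peak lay in the first intron, and these intron stretches are shown because they hold every AGGTCA found in the 6 peaks. They are read from the mm9 genome on the strand of the gene, 5′ to 3′, and capitals mark AGGTCA or its reverse complement TGACCT. The coordinates are chr11:63892683-63892748 on the minus strand for Cox10, chr11:90499900-90500029 on the plus strand for Cox11 and chr14:54980626-54980834 on the plus strand for Oxa1l.
Cox10: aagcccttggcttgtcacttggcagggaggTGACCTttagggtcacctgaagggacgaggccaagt
Cox11: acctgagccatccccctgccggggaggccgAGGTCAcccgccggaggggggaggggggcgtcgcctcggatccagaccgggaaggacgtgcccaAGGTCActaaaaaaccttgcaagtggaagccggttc
Oxa1l: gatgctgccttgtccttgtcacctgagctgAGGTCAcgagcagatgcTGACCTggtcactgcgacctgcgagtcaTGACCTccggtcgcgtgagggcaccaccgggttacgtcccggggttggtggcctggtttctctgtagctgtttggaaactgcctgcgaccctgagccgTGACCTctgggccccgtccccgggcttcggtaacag

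The peak at Cox10 (ENSMUSG00000042148.8, chr11:63776129-63892970, minus strand) spanned chr11:63892496-63893096, and its midpoint lay 172 bp downstream of a start site, in the first intron. It covered 244 exonic bases, those of a neighbouring gene included. The sequence AAGGTCA, the last bases of the extended ESRR sequence, occurred once in this peak, 253 bp downstream of the start site and 81 bp from the peak midpoint, and read in the direction opposite to the gene. A long intergenic RNA gene on the other strand, 2810001G20Rik, begins 18 bp upstream of Cox10, and the peak covered the start sites of both genes. No other protein-coding gene had a start site within 30 kb of this peak, and the nearest other peak was 1526 kb away.

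The peak at Cox11 (ENSMUSG00000020544.8, chr11:90499487-90506245, plus strand) spanned chr11:90499554-90500154. Its midpoint lay in the coding part of the first exon, 367 bp downstream of the start site, and 313 of its bases were exonic. It held 2 copies of AGGTCA, 446 and 510 bp downstream, and the farther copy was part of an AAGGTCA whose centre was 142 bp from the peak midpoint. Stxbp4, a gene on the opposite strand, starts 89 to 111 bp upstream of Cox11, and Tom1l1 was a further gene within 30 kb, so that the peak counted for these genes too. The start site of Cox11 was the nearest.

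The peak at Oxa1l (ENSMUSG00000000959.5, chr14:54980525-54989353, plus strand) spanned chr14:54980418-54981018, and the start site lay 193 bp before its midpoint. The peak held no AAGGTCA, but 4 copies of AGGTCA at 134, 151, 179 and 277 bp downstream of the start site, 1 in the direction of the gene and the other three against it. The copy closest to the peak midpoint was 14 bp away from it. At least 4 copies of AGGTCA occurred in 45 of the 1639 peaks (2.75%). No other protein-coding gene started within 30 kb, and the next peak was 116.6 kb away.

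**Figure D1:**
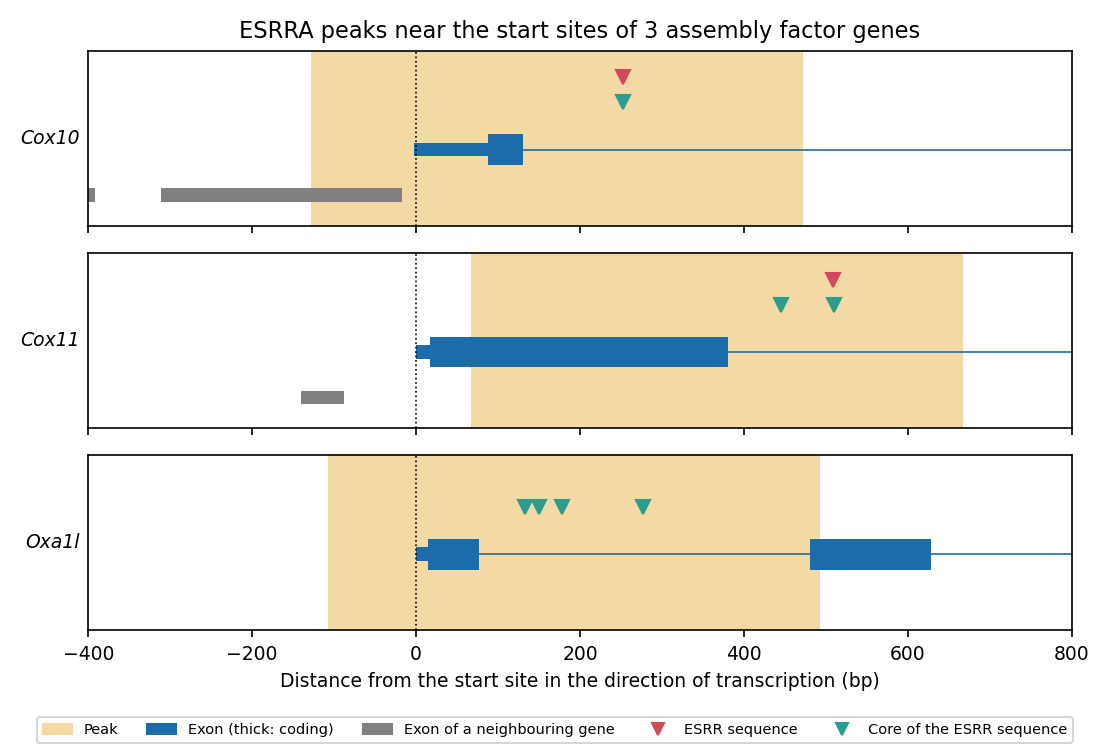
Maps of the ESRRA peaks nearest to Cox10, Cox11 and Oxa1l, with the distance from the start site in the direction of transcription in bp on the horizontal axis. The shaded band is the peak, blue bars are exons of the gene (thick where coding), grey bars are exons of the neighbouring gene on the other strand, and triangles mark AAGGTCA (red) and AGGTCA (green). All marked sequences lie 134 to 510 bp downstream of the start site, in the first intron.

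The other three bound genes had their peak at a distance, and in each case the start site of another gene was nearer to it. They were Sco1, Sco2 and Cox19, which like Cox11 encode proteins of copper delivery to cytochrome c oxidase. Sco1 and Sco2 are paralogous membrane proteins required at the copper A site of subunit II, and Cox19 is a protein of the intermembrane space that works with Cox11. The peak nearest to Sco1 (ENSMUSG00000069844.6, chr11:66866172-66880572, plus strand) spanned chr11:66849560-66850160 in intergenic sequence, 16312 bp upstream of Sco1 and 4169 bp from a start site of 2310004I24Rik. The peak nearest to Cox19 (ENSMUSG00000045438.6, chr5:139812143-139821187, minus strand) spanned chr5:139807445-139808045, beyond the 3′ end of the gene and 7784 bp downstream of its most 3′ annotated start site. That start site belongs to a non-coding transcript of Cox19, and the nearest gene was Adap1, 6169 bp away. The peak nearest to Sco2 (ENSMUSG00000091780.1, chr15:89202113-89202880, minus strand) spanned chr15:89230106-89230706, 27526 bp upstream, in an intron of Syce3. The start sites of 8 other protein-coding genes lay within 30 kb of it, among them Cpt1b, which encodes the muscle form of carnitine palmitoyltransferase, and Tymp, which encodes thymidine phosphorylase. The annotated record of Sco2 is 768 bases long, all of them coding, so that its annotated start is its start codon and the distance of Sco2 is not measured from a mapped transcript start.

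None of these 3 distal peaks held AGGTCA. Their best matches to TCAAGGTCA are shown for comparison with the promoter peaks, in capitals within windows of mm9 sequence read on the strand of the match, with 2 mismatches for Sco1 and Cox19 and 1 for Sco2. The windows are chr11:66849740-66849768 on the minus strand for Sco1, chr5:139807753-139807781 on the plus strand for Cox19 and chr15:89230542-89230570 on the minus strand for Sco2.
Sco1: gagggggcatTCCACGTCAaccaccactc
Cox19: tggctccgtcTCAAGGAAAagttgaagaa
Sco2: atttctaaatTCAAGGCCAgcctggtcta

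Across the 6 peaks, AAGGTCA occurred in 2, those of Cox10 and Cox11, against 44% of all 1639 peaks and 12.6% of 3074 flanking windows, which had the peak width and lay 2 kb to either side. The full TCAAGGTCA occurred in none of the 6, against 14.3% of all peaks and 1.59% of flanking windows. With any base allowed at its second place (TNAAGGTCA), it occurred in 1 of the 6, that of Cox10, as TAAAGGTCA. That form was in 20.4% of all peaks and 3.58% of flanking windows. AGGTCA was found in 3 of the 6, in 61.4% of all peaks and in 34.2% of flanking windows. A match to TCAAGGTCA with at most 1 mismatch was in 3 of the 6, in 46.3% of all peaks and in 19.4% of flanking windows. With 6 peaks, a single peak more or less would move each of these shares by more than it differed from the share of all peaks, and no test was made. A reversed form of the sequence, ACTGGAACT, used as a control, was in none of the 6, in 0.427% of all peaks and in 1.07% of flanking windows.

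All 6 peaks had a median of 1 copy in the genome for their 24-base words, whereas 324 of the 1639 peaks were of repeated sequence. A median of 1 copy does not exclude a repeated stretch within a peak. The promoter peaks of Cox10, Cox11 and Oxa1l had a GC content of 58.6, 68.7 and 62.2%, and the distal peaks of Sco1, Sco2 and Cox19 one of 46.1, 48.1 and 51.1%. The midpoints of all 3 promoter peaks fell downstream of the start site, as did those of 283 of the 443 peaks (63.9%) within 1 kb of any protein-coding start site. The nearest other peak to each of the 6 was between 116.6 kb (Oxa1l) and 3214 kb (Sco2) away. The spacing over all 1639 peaks is not given, so this is not taken as particular to the 6.

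The share of bound genes was compared with that of all protein-coding genes. Of the 31 assembly factor genes, 6 (19.4%, 95% Wilson interval 9.19 to 36.3%) had a peak within 30 kb, against 1954 of 22225 protein-coding genes (8.79%). Within 1 kb it was 3 of 31 (9.68%, interval 3.35 to 24.9%), against 464 protein-coding genes (2.09%). Both shares of the members were above those of all genes, and the background share lay below the lower bound of each interval, at 30 kb by a small margin. With the same 6 members bound, the share of all genes stayed below that bound under other settings at 30 kb, at 7.95 to 8.85%. These settings left out repeated sequence, or used peak edges, start sites of protein-coding transcripts or the 5′-most start site. The margin was not kept within 5 kb, within 50 kb or by nearest gene alone. Within 50 kb, 7 members (22.6%) were bound, and the share of all genes (12.4%) lay inside the interval for them. The share of all genes within 5 kb (3.39%) and the share by nearest gene alone (4.4%) lay inside the interval for the 3 members bound under each of them, 3.35 to 24.9%. These intervals cover counting error over genes only, and no p-value was computed because the genes were listed with earlier results of these peaks known.

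Assembly factor genes also differed from other genes in promoter type, number of start sites and chromosome, and the part of these in the shares was not tested. A CpG-rich promoter was found in 30 of the 31 (96.8%) and in 54% of all protein-coding genes, the exception being Sco2. Among the 12004 protein-coding genes with a CpG-rich promoter, 10.7% had a peak within 30 kb and 3.02% within 1 kb, beside 5 (16.7%, Wilson interval 7.34 to 33.6%) and 3 (10%) of the 30 assembly factors of this kind. The 10.7% of all genes with such a promoter lay inside that interval. The median number of annotated start sites per gene was 4 for assembly factors and 2 for all genes. On chromosome 11, where 14.6% of 1648 protein-coding genes had a peak within 30 kb, lay 7 of the assembly factors, and 3 of them (Cox10, Cox11 and Sco1) were bound. On the other chromosomes 3 of 24 members (12.5%) were bound, against 8.33% of protein-coding genes.

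The bound genes were counted by the complex that they serve. Of the 11 factors for cytochrome c oxidase, 5 had a peak within 30 kb (45.5%, Wilson interval 21.3 to 72.0%) and 2 within 1 kb (18.2%). Of the 3 factors of insertion, mRNA stability and translation, Oxa1l was bound and Lrpprc and Fastkd2 were not. No peak was within 30 kb of the 9 factors for complex I, the 2 for complex II, the 3 for complex III or the 3 for ATP synthase. A count of 0 in so few genes allows a share of up to 29.9% for complex I, 65.8% for complex II and 56.2% for each of the remaining pair. These groups could not be told from the background, nor could the group of Oxa1l at 30 kb (6.15 to 79.2%). The interval for cytochrome c oxidase is that of the group with the highest share and covers counting error over genes only. Of its 5 bound genes, Sco1, Sco2 and Cox19 had a peak nearer to another gene. Whether the share differed between the groups was not tested.

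**Figure D2:**
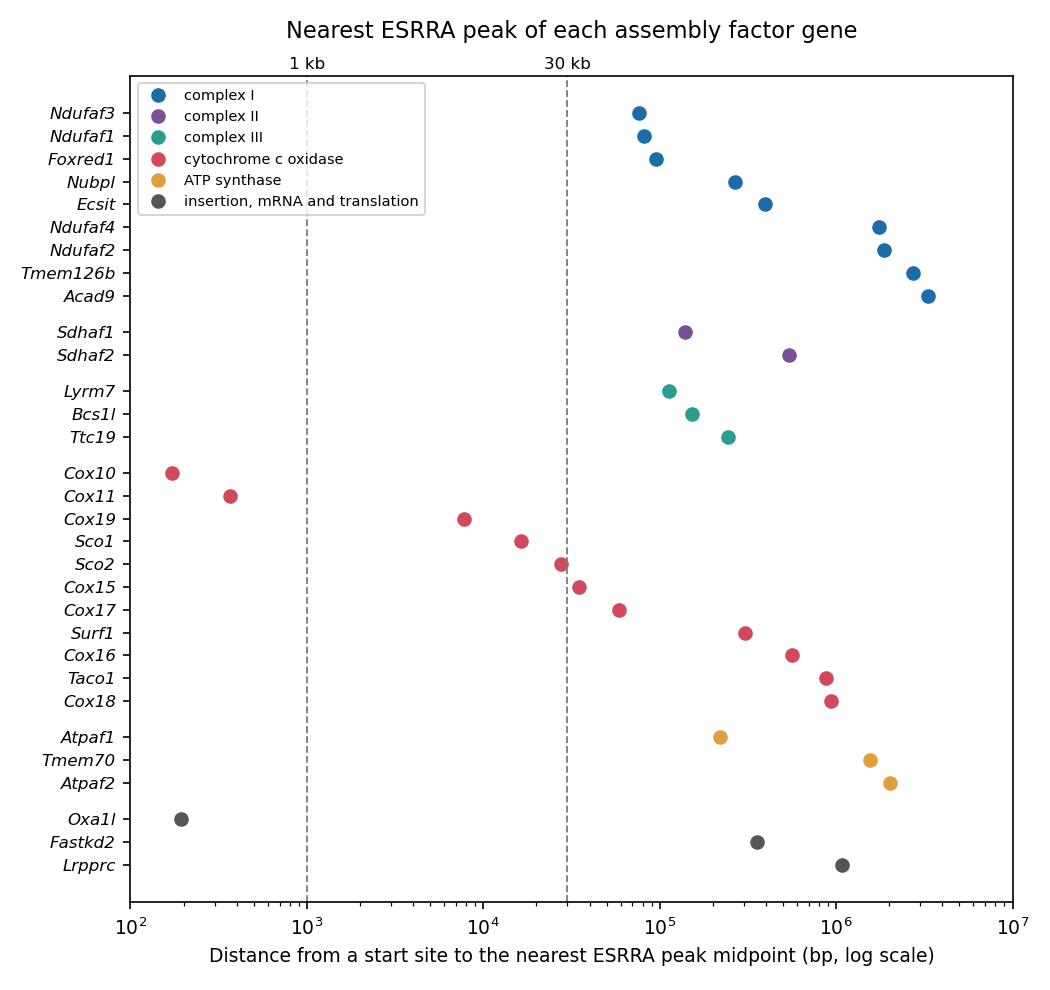
Distance in bp, on a log scale, from a start site of each of the 31 assembly factor genes to the midpoint of the nearest ESRRA peak, coloured by the complex served. Dashed lines mark 1 kb and 30 kb. Cox10, Oxa1l and Cox11 lie below 1 kb, Cox19, Sco1 and Sco2 between the lines, and no factor for complexes I, II, III or ATP synthase lies to the left of 30 kb.

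The members on either side of the 30 kb limit were all factors for cytochrome c oxidase. Just inside was Sco2 at 27526 bp, and just outside were Cox15, with a peak 34667 bp upstream, and Cox17, with a peak 59140 bp upstream. Cox15 encodes the enzyme that converts heme O to heme A, the step after Cox10, and Cox17 encodes the copper chaperone that passes copper to Sco1, Sco2 and Cox11. Both peaks lay in introns of other genes, that near Cox15 in Abcc2, which encodes a canalicular and brush-border conjugate transporter, and that near Cox17 in Nr1i2, which encodes the xenobiotic receptor PXR. The remaining cytochrome c oxidase factors were far from any peak. Surf1, which acts early in the assembly of subunit I, was 302.7 kb away and Cox16, which serves subunit II, 558.6 kb away. The translational activator Taco1 was 879.8 kb and Cox18, which exports a part of subunit II across the membrane, 933.3 kb from the nearest peak.

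The factors for complex I lay 76.44 to 3329 kb from the nearest peak, with a median of 395.1 kb. Ndufaf3, which works together with Ndufaf4 on an early intermediate, was the closest at 76.44 kb, and Ndufaf4 itself was 1757 kb away. The proteins of the complex that assembles the membrane arm were at 81.4 kb (Ndufaf1), 395.1 kb (Ecsit), 2741 kb (Tmem126b) and 3329 kb (Acad9), and the last was the farthest of the 31 genes. Foxred1, a flavoprotein, was 95.34 kb away, Nubpl, which delivers iron-sulfur clusters, 267.6 kb, and Ndufaf2, which acts late, 1859 kb. The median over all protein-coding genes was 446.1 kb.

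Among the factors for complex II, Sdhaf1, needed for the iron-sulfur subunit, was 138.2 kb and Sdhaf2, needed for the flavin of the catalytic subunit, 540.3 kb from a peak. The factors for complex III were somewhat closer, at 112.1 kb for Lyrm7 and 152 kb for Bcs1l, which hold and insert the Rieske protein, and at 242.6 kb for Ttc19, which clears its fragments. The chaperones Atpaf1 and Atpaf2 of the F1 part of ATP synthase lay 219.8 and 2022 kb away, and Tmem70, which helps to form the c-ring, 1553 kb. Fastkd2, a protein of mitochondrial RNA granules, was 353.9 kb and Lrpprc, which stabilises mitochondrial mRNAs, 1081 kb from a peak. The symbol Pet112 was absent from the annotation, where the gene is named Pet112l, and it was not counted. It encodes a subunit of the enzyme that makes mitochondrial glutaminyl-tRNA, and its nearest peak was 313.6 kb away. Over all 31 genes the median distance was 242.6 kb, with quartiles at 67.79 and 906.5 kb, and it was 376.6 kb over protein-coding genes with a CpG-rich promoter.

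The assembly factors were then set beside the subunits of the same complexes. Of 82 nuclear genes for subunits, 49 (59.8%, Wilson interval 48.9 to 69.7%) had a peak within 30 kb and 44 (53.7%) within 1 kb, and their median distance was 0.4845 kb. The interval of the assembly factors ended at 36.3% and did not reach that of the subunits. For cytochrome c oxidase 5 of 11 factors and 12 of 17 subunits were bound within 30 kb, and 2 of 11 and 10 of 17 within 1 kb. For complex I it was 0 of 9 factors and 16 of 37 subunits, and for ATP synthase 0 of 3 factors and 12 of 15 subunits. Subunits were assigned to a complex by gene symbol alone, which places Ndufa4 with complex I. The intervals of factors and subunits overlapped in each of the 5 complexes, for complex I between 28.7 and 29.9% and for ATP synthase between 54.8 and 56.2%, and the difference was not tested.

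**Figure D3:**
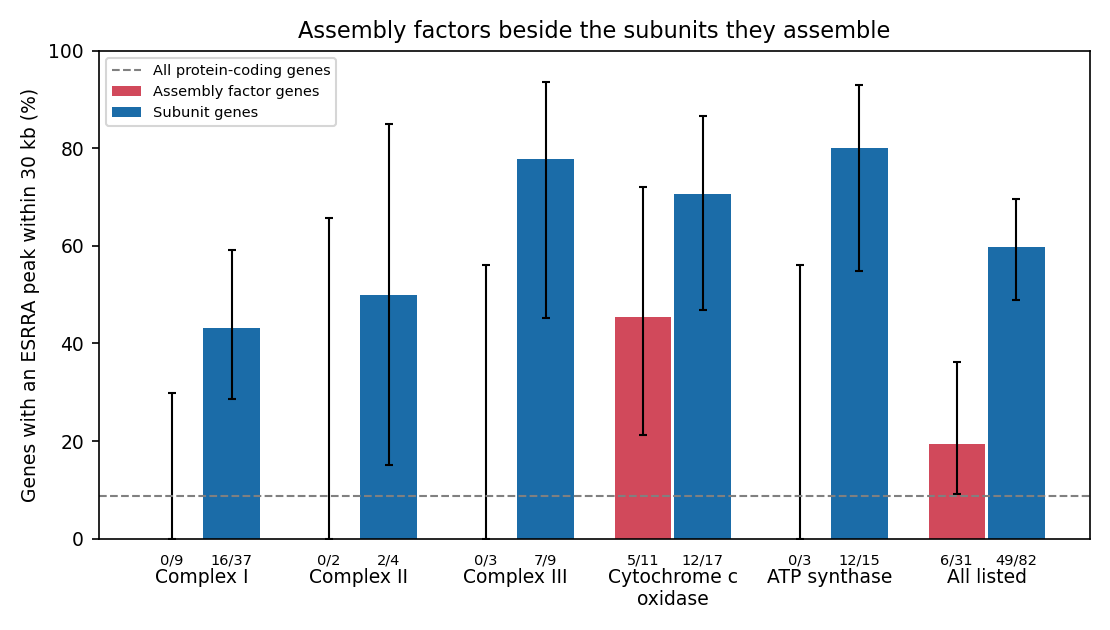
Share of genes in % with an ESRRA peak within 30 kb of a start site, for assembly factors (red) and subunits (blue) of each complex. Bars carry 95% Wilson intervals, the numbers below them are bound genes over all genes, and the dashed line is the share of all protein-coding genes, 8.79%. The cytochrome c oxidase group is the only single complex with a bar for its assembly factors, at 45.5%, and the subunits have the higher bar in each of the 5 complexes.

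A second list of 30 assembly factor genes outside the 32 was available as a comparison, and 28 of them were found in the annotation. Unlike the members, these genes were also matched by their other symbols, and all 5 bound genes named below were found in that way. Among these, 5 (17.9%, Wilson interval 7.88 to 35.6%) had a peak within 30 kb and 2 (7.14%) within 1 kb, close to the shares of the members. The bound genes were the complex I factors Ndufaf8 (2491 bp) and Dmac1 (26156 bp) and the cytochrome c oxidase factors Cox20 (540 bp), Cox14 (884 bp) and Coa5 (4734 bp), each given with its distance. Of 76 genes for mitochondrial ribosomal proteins, which also serve the mitochondrially encoded part of the chain, 13 (17.1%, Wilson interval 10.3 to 27.1%) had a peak within 30 kb and 5 (6.58%) within 1 kb.

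**Figure D4:**
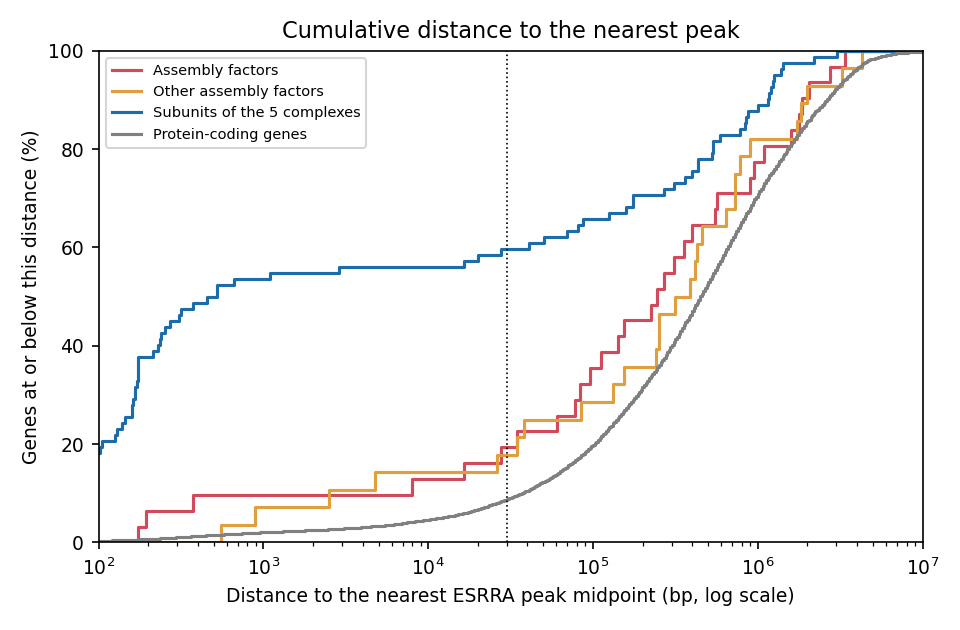
Share of genes in % whose nearest ESRRA peak lies at or below the distance on the horizontal axis (bp, log scale), for the 31 assembly factors, the 28 other assembly factors, the 82 subunits of the 5 complexes and all 22225 protein-coding genes. The dotted line marks 30 kb, where the curves stand at 19.4, 17.9, 59.8 and 8.79%.

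The ESRR sequence was also sought in the promoters of the members, in a window from 250 bases before to 50 bases after each start site. AAGGTCA occurred on either strand in 4 of the 31 genes (12.9%), against 9.42% of all protein-coding genes and 10.9% of those with a CpG-rich promoter, and TCAAGGTCA in none, against 1.06% of all. The 4 genes were Ttc19, Cox17, Cox18 and Atpaf1, and none of their matches lay in a peak. They are shown because they are AAGGTCA sequences close to a start site that the peak list did not cover, and capitals mark the match on its own strand. The windows are all on the minus strand of mm9, at chr11:62122477-62122505 for Ttc19, chr16:38346957-38346985 for Cox17, chr5:90653030-90653058 for Cox18 and chr4:115472765-115472793 for Atpaf1.
Ttc19: agttatatacaAAGGTCAaaaagcaagcc
Cox17: gcaaaggttaaAAGGTCAcccagaatggt
Cox18: tttcggctgggAAGGTCAggcgtggcctc
Atpaf1: gtatgcaggacAAGGTCAggcctgcaaag

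The matches of Cox17 and Cox18 lay 106 and 18 bp upstream of the 5′ end of the gene. Those of Ttc19 and Atpaf1 lay 53 and 210 bp upstream of an internal start site, in an intron. Counting the 5′-most start site of each gene alone left Cox17 and Cox18, 6.45% of the members against 3.94% of all genes. None of the 4 genes with AAGGTCA in the window was among the 3 with a peak within 1 kb. Of all protein-coding genes only 2.09% had such a peak, so that the lack of overlap among 4 genes says little. The share with such a peak among all genes with AAGGTCA in the window is not given. The overlap also depends on the window. At Cox10 and Cox11 the sequence lay more than 50 bases downstream of the start site, within the wider window of 1000 bases to either side that was also run.

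Sequences of other promoter-binding factors were read in the same windows. CCGGAAG, the core of binding sites of the ETS family, was in 11 of the 31 genes (35.5%), against 15.4% of all protein-coding genes and 24.8% of those with a CpG-rich promoter. These were Ndufaf1, Acad9, Ecsit, Sdhaf1, Sdhaf2, Bcs1l, Surf1, Sco1, Cox10, Cox15 and Cox16. AAGATGGCG, the sequence of YY1, was in 4 (12.9%), namely Tmem126b, Cox10, Atpaf2 and Oxa1l, against 2.94% of all genes and 4.92% of those with a CpG-rich promoter. In Cox10 and Oxa1l it lay inside the peak, 19 and 15 bp downstream of the start site, and it was found in 2.07% of all peaks and 5.19% of promoter peaks. GCATGCGC, the sequence of NRF1, was in Ndufaf4, Ttc19 and Cox18 (9.68%, against 4.68% and 7.72%). CAAAGTCCA, bound by HNF4A, was in none of the members and in 1.02% of all genes. A match of this kind describes the sequence and does not show that a factor binds there.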

How the data were processed

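ESRRA ChIP-seq was carried out by the authors on wild-type duodenal villus cells in 2 ChIP libraries and 1 input library, grouped here by their titles. Per the study's methods and the submitters' processing notes, reads were checked with FastQC 0.11.3 and aligned to mm9 with Bowtie2 2.2.6, the ChIP libraries were merged with SAMtools 0.1.19, and MACS2 called peaks at a p-value of 1e-05. The deposited values were peak starts (counted from 0) and ends in bp, all peaks 601 bp wide. How that width was set is not given in the sources used here. Merging hides differences between libraries, and weak and strong peaks count alike.

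Distances were measured from peak midpoints to every transcript start site of GENCODE M1, whose genome is the mm9 build, over 22225 protein-coding gene symbols on the autosomes, X and Y. Coordinates are printed counted from 1. Sequences came from that genome and motifs were matched exactly on both strands. AGGTCA lies within AAGGTCA, which lies within TCAAGGTCA. A promoter was CpG-rich when any of its windows had an observed to expected CpG ratio of at least 0.6. A peak was of repeated sequence when its 24-base words had a median above 10 genomic copies, counted over the whole genome. Intervals are Wilson 95% intervals (python 3.11.15, numpy 2.4.6, pysam 0.24.0).

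The members, the lists compared and the alternatives were chosen with earlier results of these data known. Every member was to be named, those with a peak within 30 kb in full and those within 60 kb as just outside. No test across samples could be made. On simulated data, 200 of 200 planted peak distances and 200 of 200 planted motifs were recovered. The gene beside the nearest peak of 1 member is not reported here.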

Additional observations from a re-analysis of the deposited data

How the results depend on the processing

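The count of 6 bound genes became 3 when peaks were linked within 5 kb, where the share of all protein-coding genes was 3.39%, and 11 within 100 kb, where it was 19.8%. The genes gained at 100 kb were Cox15, Cox17, Ndufaf1, Ndufaf3 and Foxred1. When each peak was given to its nearest gene alone, 3 members remained, Cox10, Cox11 and Oxa1l, against 4.4% of all genes. At 10 kb the count was 4 (4.66% of all genes) and at 50 kb it was 7 (22.6% of members, 12.4% of all genes). It was 6 with repeated sequence left out (8.23% of all genes), with distances from the peak edge (8.85%), with start sites of protein-coding transcripts (8.36%), with the 5′-most start site (7.95%), and with Pet112l counted. The count of 3 genes within 1 kb was 3 under all 7 alternatives run, which included limits of 500 bp and 2 kb, where the share of all genes was 1.52 and 2.51%. It was 1.73 to 2.21% under the other settings with a share of their own. Joining peaks less than 1 kb apart, leaving out repeated sequence, or using peak edges gave 6 peaks each time.

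Of the 6 peaks, 2 held AAGGTCA, 1 did within 100 bases of the midpoint, and 0 held TCAAGGTCA. Of the promoters, 4 held AAGGTCA, 21 did when the window reached 1000 bases to either side (44% of all genes did), 0 held TCAAGGTCA, and 2 did at the 5′-most start site, an alternative chosen after seeing the data. No paired analysis was possible because the list pools both ChIP libraries and no result comes from a test between groups. For the same reason no library could be left out, and no stricter peak threshold was run because the list has no score. The list gives no read counts, so a gene without a listed peak is not shown to be unbound.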

Other observations

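The nearest peaks of the 25 genes without a peak within 30 kb lay at other genes or in repeated sequence in part. In 5 of the 25 the nearest peak was within 1 kb of the start site of another protein-coding gene. For Sdhaf1 it lay 18 bp from the start of Cox7a1, a subunit gene of cytochrome c oxidase. For Acad9 it lay in Ndufb5, a subunit gene of complex I, 151 bp from the start of the mitochondrial ribosomal protein gene Mrpl47. For Ndufaf3 and Ttc19 it lay at Usp19 (213 bp) and Ubb (1 bp). In another 5 of the 25 the nearest peak was of repeated sequence, namely for Ndufaf2, Ndufaf4, Tmem126b, Taco1 and Tmem70. Over all 1639 peaks, 443 (27%) lay within 1 kb of a protein-coding start site and 324 were of repeated sequence. Neither count is taken as particular to the 25 genes.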
